A study of Mus musculus with 18 samples.

Results

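The genes described here encode Slc25a carriers, which mostly move metabolites across the inner mitochondrial membrane. They also encode the translocases that bring proteins into mitochondria (Timm at the inner membrane, Tomm at the outer). They were taken by symbol: every gene whose symbol is Slc25a, Timm or Tomm followed by a digit, which gave 60 of the 14419 genes in the deposited table, 40 Slc25a, 11 Timm and 9 Tomm genes. All 60 passed the filter on low values, and the member with the fewest reads had 50 over the 18 libraries. The RNA came from blood-forming cells of adult male C57BL/6 mice with no other allele named in the labels, sorted from bone marrow after the mice received tamoxifen, a selective ligand of oestrogen receptors, or its corn oil vehicle. The series compared long-term stem cells (LT), short-term stem cells (ST) and multipotent progenitors (MPP), the field's usual readings of the names in its design text. The 6 groups were LT oil, LT tamoxifen, ST oil and ST tamoxifen after 2 weeks, and MPP oil and MPP tamoxifen after 1 week, with 3 libraries each that the series calls biological replicates. The sources used here give neither the gates of the sort, nor the tamoxifen dose, nor whether each library is 1 mouse. In every comparison of MPPs with the other cells, population and duration cannot be told apart.

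Nearly all mitochondrial proteins are made in the cytosol. They enter through the TOM complex, where Tomm20, Tomm22 and Tomm70a are receptors and Tomm40 forms the pore. Proteins with a presequence go on through the TIM23 complex into the matrix, while carrier proteins are escorted across the space between the membranes by small TIM chaperones, in which Timm9 pairs with Timm10 and Timm8a1 or Timm8b with Timm13, and are inserted by the TIM22 complex. Most Slc25a proteins are thus themselves clients of the small TIM and TIM22 route. Among the members, Slc25a17 is a peroxisomal carrier and Slc25a46 a protein of the outer membrane. Quiescent blood stem cells are known for low mitochondrial activity, which rises as they divide and differentiate.

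Values are the deposited normalised ones, called normalised CPM here: each is a number of reads plus a small offset, times a constant of its library. They sum to between 900541 and 1149321 per library, the method behind the constants is not stated, and they are not divided by transcript length. Reads in the listed genes ranged from 2728800 to 5279821 per library. The members together held 0.202% to 0.272% of these reads. Fold changes are log2 differences of (value + 1) with their standard errors (SE), and "higher", "lower", "rose" and "fell" are used for a Benjamini-Hochberg adjusted p under 0.05 by limma over all 14419 genes. Counts at an unadjusted p under 0.05 are given without the share of all genes at that cutoff, and are not read as results. In bulk samples, fewer cells of a type and less RNA per cell cannot be told apart. Of 14 long-term stem cell markers 9 were lower in ST oil and 12 in MPP oil than in LT oil, and of 9 progenitor markers 5 and 8 were higher. Between MPP and ST oil the progenitor markers followed the labels, with 5 of 9 higher in MPPs. The long-term markers went both ways. Of the 14, 4 were lower in MPPs, among them Slamf1 (-3.37), Gata2 (-1.3) and Vwf (-0.958), and 4 were higher, among them Hlf (0.891). Their sum was 2514 to 2826 in MPP oil and 1952 to 2409 in ST oil. LT tamoxifen library A stood apart from its group, with 25.5% of its reads in mitochondrial ribosomal RNA while the other LT libraries had 17.7% to 18.7%. It was the lowest of the 3 LT tamoxifen libraries for 14 of the 20 Timm and Tomm genes and for 19 of the 40 Slc25a genes. Such counts were not particular to it. LT oil library C and ST oil library C were each lowest in their group for 12 of the 20. LT oil library A was lowest for 19 of the 40. Results of tamoxifen in LT cells are given with and without LT tamoxifen library A. Short transcripts were high in the ST oil libraries: genes of up to 1000 exon bases deviated from their own mean over the 18 libraries by a median of 0.28 to 0.50 (log2) in ST oil, 0.02 to 0.15 in ST tamoxifen, and -0.15 to -0.02 in the LT and MPP libraries.

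The 6 members that changed with tamoxifen in LT or ST cells were Timm8a1, Timm23, Slc25a5, Slc25a3, Slc25a27 and Slc25a42. To show the sequence in front of those that rose, the 250 bases before the start of 4 of these genes are printed here, from RefSeq on GRCm38.p6 and matched by symbol, 5′ to 3′ on the gene's strand, with motif matches in capitals. Of the 60 members, 50 matched, with 61 promoters.
Timm8a1, chrX:134541671-134541920, minus strand: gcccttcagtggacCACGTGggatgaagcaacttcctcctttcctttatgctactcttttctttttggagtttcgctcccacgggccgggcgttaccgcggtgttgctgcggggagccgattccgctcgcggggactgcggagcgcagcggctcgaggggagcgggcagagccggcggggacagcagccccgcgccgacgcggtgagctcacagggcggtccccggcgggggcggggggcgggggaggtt
Timm23, chr14:32201892-32202141, minus strand: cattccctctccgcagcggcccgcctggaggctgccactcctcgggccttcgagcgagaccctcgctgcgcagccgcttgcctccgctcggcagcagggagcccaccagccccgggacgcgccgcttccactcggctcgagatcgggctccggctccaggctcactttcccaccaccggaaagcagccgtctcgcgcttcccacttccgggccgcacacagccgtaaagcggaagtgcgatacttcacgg
Slc25a5, chrX:36795347-36795596, plus strand: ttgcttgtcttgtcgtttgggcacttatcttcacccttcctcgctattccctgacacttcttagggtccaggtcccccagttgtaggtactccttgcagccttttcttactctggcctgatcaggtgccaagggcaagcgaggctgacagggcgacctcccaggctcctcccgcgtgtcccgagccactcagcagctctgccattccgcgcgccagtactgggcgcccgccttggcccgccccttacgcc
Slc25a3, chr10:91123968-91124217, minus strand: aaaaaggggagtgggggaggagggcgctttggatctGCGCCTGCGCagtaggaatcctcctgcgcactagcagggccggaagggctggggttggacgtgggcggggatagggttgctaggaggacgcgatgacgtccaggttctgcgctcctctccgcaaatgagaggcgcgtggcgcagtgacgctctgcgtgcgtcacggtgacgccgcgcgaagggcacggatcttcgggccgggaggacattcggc
Both strands of each promoter were searched for CACGTG, the E-box bound by Myc-type factors, for the palindromic site of nuclear respiratory factor 1 (NRF1) and for the palindromic oestrogen response element. In Timm8a1 the capitals mark CACGTG, whose first base lies 236 bases before the start, and in Slc25a3 they mark a match to the NRF1 site, 214 bases before it. The windows of Timm23 and Slc25a5 held none of these motifs. CACGTG was in 10 of the 61 member promoters (16.4%) and in 6.02% of all 32851 promoters of this length. The members with it were Slc25a1, Slc25a13, Slc25a14 (in 2 of its 3 promoters, overlapping windows that hold the same site), Slc25a15, Slc25a33, Slc25a36, Timm8a1, Timm9 and Tomm20, or 9 of 50 genes (18%) against 6.86% of all 27025 genes with a promoter. The NRF1 site was in 2 of the 61 (3.28%) against 3.74% of all promoters, the other being Tomm20. The oestrogen response element was in 0 of 61, and in 0.0639% of all promoters. These are matches of letters in a window, not measured sites.

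The first comparison asked how the members differ between the populations without tamoxifen. Of the 20 Timm and Tomm genes, 16 had their highest oil mean in ST cells, and the exceptions were Timm22, Tomm34, Tomm40 and Tomm70a. For Slc25a genes it was 16 of 40. The share of all genes was not counted, so neither count is read as a result. Short transcripts as a class were high in ST oil as well, as described above. Among the 20 Timm and Tomm genes, 9 were higher in ST oil than in LT oil and 0 lower. The 9 include the receptors Tomm20 and Tomm22 and 4 of 5 small TIMs. Of the 40 carriers 1 was higher and 6 were lower. In all, 16 of 60 members passed the test (26.7%), close to the 28.5% of all genes that did, of which 12.5% were higher and 16% lower. For Timm and Tomm genes the share higher was 45%, and for the carriers the share lower was 15%, near that of all genes. The median log2 difference was 0.53 for Timm and Tomm genes, -0.07 for Slc25a genes and 0.01 for all genes.

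Among the small TIM chaperones, Timm8b had 11.8, 16.3 and 16.02 normalised CPM in the LT oil libraries and 39.7, 58.1 and 23.9 in ST oil. The groups did not overlap, and the log2 difference was 1.33 (SE 0.30, limma adjusted p = 0.00124). Timm9 had 13.9, 11.7 and 12.1 in LT oil and 20.2, 25.4 and 24.2 in ST oil (log2 difference 0.84, limma adjusted p = 0.00371). Its partner Timm10 had 6.57, 9.56 and 6.27 in LT oil and 14.0, 15.7 and 10.1 in ST oil (0.76, limma adjusted p = 0.0407). For both, each ST library was above each LT library. Timm8a1, the mouse counterpart of the human deafness-dystonia gene, had 38.9, 52.1 and 37.2 in LT oil and 73.6, 70.8 and 64.3 in ST oil (0.70, SE 0.18, limma adjusted p = 0.00321). The remaining small TIM, Timm13, did not overlap either but missed the threshold, with 7.61, 10.6 and 6.55 against 13.0, 15.4 and 17.7 (0.84, limma adjusted p = 0.0713).

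In the TOM complex, the presequence receptor Tomm20 had 58.9, 49.9 and 48.3 in LT oil and 96.6, 81.0 and 77.2 in ST oil (0.69, SE 0.16, limma adjusted p = 0.00181). The identifier behind this symbol is not in the annotation used for lengths, so its place in the genome is uncertain. Tomm22, the central receptor, had 52.8, 48.6 and 45.0 in LT oil and 73.2, 86.0 and 60.8 in ST oil (0.57, limma adjusted p = 0.0314). Tomm5, a small subunit, had 36.0, 38.4 and 26.9 against 60.4, 59.5 and 49.1 (0.73, limma adjusted p = 0.0382). Tomm7, another small subunit, had 9.07, 7.94 and 9.33 against 18.9, 34.3 and 13.6 (1.16, SE 0.30, limma adjusted p = 0.00397), the ST libraries being both higher and more spread. By contrast Tomm70a, the receptor that carrier proteins use, had 136, 129 and 112 in LT oil and 123, 102 and 120 in ST oil (-0.12, limma adjusted p = 0.504), and these groups overlapped.

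In the TIM23 complex, 1 of 5 genes was higher in ST oil. Timm17b, a channel subunit, had 18.9, 22.8 and 16.9 in LT oil and 34.1, 30.3 and 33.3 in ST oil (0.72, SE 0.27, limma adjusted p = 0.0445). Timm23, the channel itself, had 51.0, 48.0 and 58.9 against 69.6, 63.1 and 65.8, without overlap and short of the threshold (0.33, limma adjusted p = 0.137). Timm22, the only TIM22 complex gene in the table, had 13.4, 18.2 and 15.5 in LT oil and 16.3, 15.1 and 15.1 in ST oil (-0.01, limma adjusted p = 0.984).

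**Figure D1:**
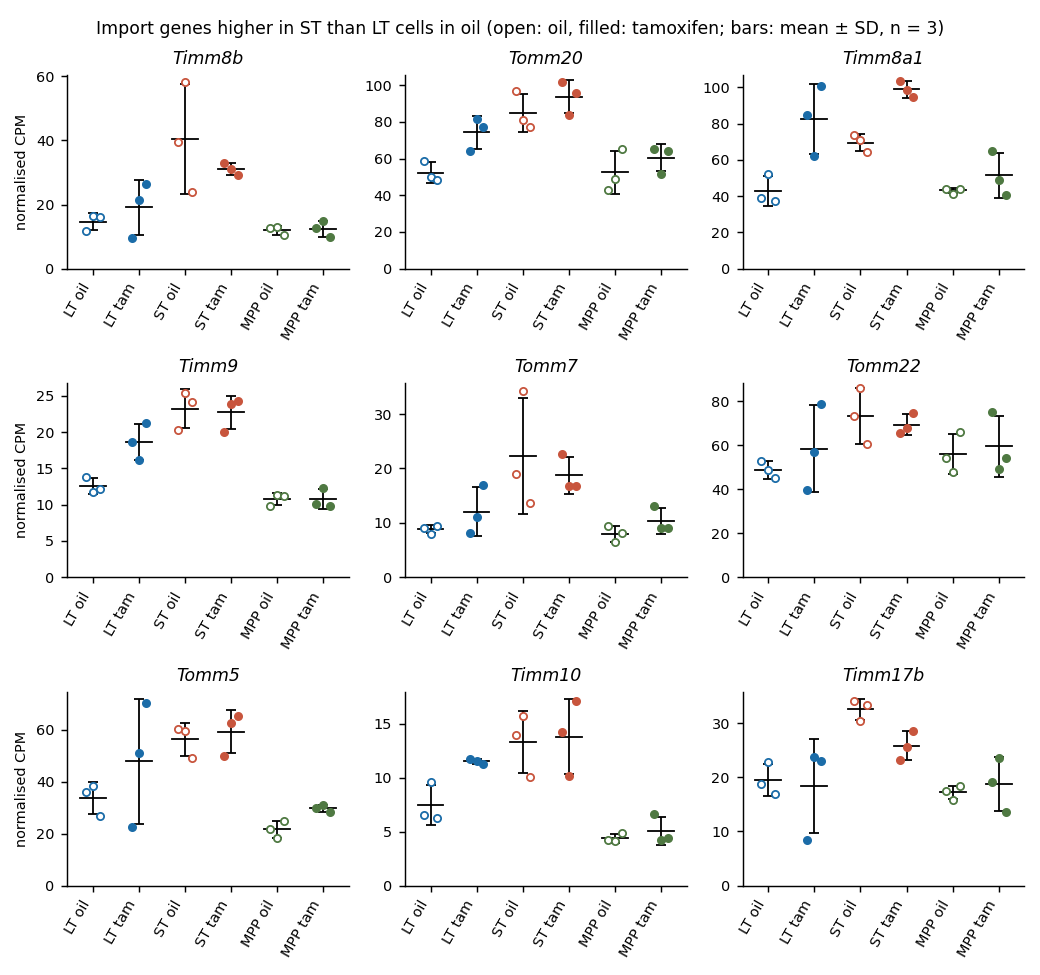
Normalised CPM (y axis, linear, from 0) of the 9 Timm and Tomm genes that were higher in ST oil than in LT oil, for every library by group (x axis), oil as open and tamoxifen (tam) as filled circles, with bars for mean ± SD (n = 3). ST oil circles lie above LT oil circles in every panel, for example 23.9 to 58.1 against 11.8 to 16.3 for Timm8b.

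These differences went together with transcript length, which was seen after the values were examined. In ST oil against LT oil, all genes of up to 1000 exon bases had a median log2 difference of 0.45, and 21.8% of them were higher and 1.15% lower. Genes of 1000 to 2000 bases had a median of 0.39, and genes over 5000 bases one of -0.21, with 7.25% higher and 28.5% lower. Timm and Tomm genes have a median exon length of 2557 bases, Slc25a genes one of 3773.5 and all genes one of 4205. Within each class Timm and Tomm genes had a median of 0.76 (up to 1000 bases, 3 genes), 0.64 (1000 to 2000, 6 genes), 0.54 (2000 to 3000, 2 genes, all genes 0.18), -0.01 (3000 to 5000, 5 genes, all genes -0.01) and 0.34 (over 5000, 3 genes). With length and GC trends removed from each library, 2 of the 19 Timm and Tomm genes with a known length, Timm8b and Timm9, were higher in place of 8, their median was 0.30, and 8 of the 59 members with a known length passed in place of 15. Tomm20 has no length in that annotation and could not be fitted there. Timm8a1 then stood at 0.29 (limma adjusted p = 0.217), Tomm22 at 0.15 (limma adjusted p = 0.616) and Tomm5 at 0.21 (limma adjusted p = 0.61). Without ST oil library B, 4 Timm and Tomm genes were higher, and without ST oil library A or LT oil library C, 5 each. The sample titles number the ST libraries separately from the other libraries, and the sources used here do not say whether they were prepared apart. Markers of other cells and of division also differed between ST and LT oil. Of 32 mitosis and DNA replication genes 17 were higher in ST, with sums of 4240 to 5063 against 2793 to 3531. Of 18 erythroblast markers 11 were lower, with sums of 641.2 to 854.6 against 2239 to 2754. Of 11 neutrophil lineage markers 6 were higher (303.6 to 563.2 against 73.26 to 112.9), Elane having the smallest p. Of 10 macrophage and monocyte markers 4 were higher (551.6 to 751.9 against 264.6 to 299.3). Their part in the differences of the members was not tested.

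**Figure D2:**
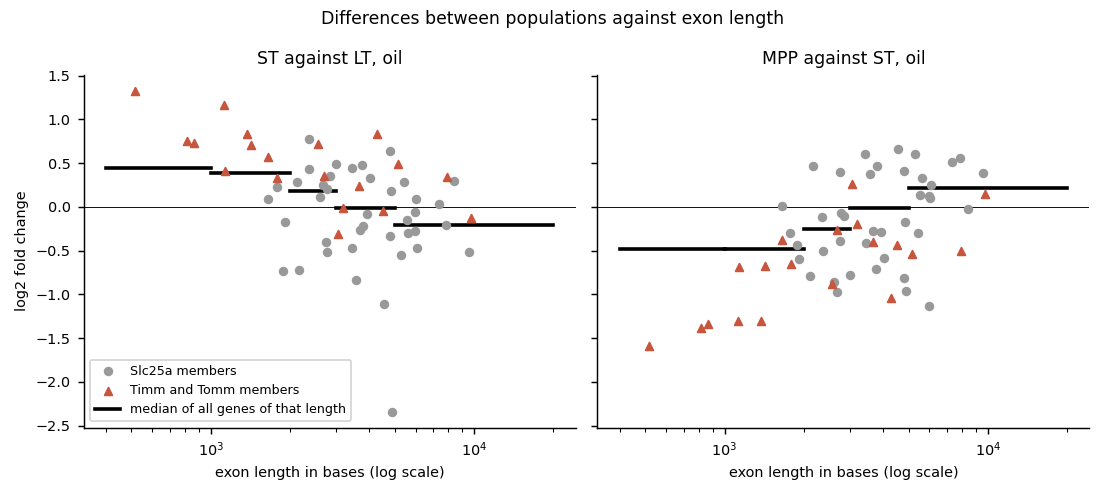
Log2 fold change (y axis) against exon length in bases (x axis, log scale) for the members with a known length, ST against LT cells (left) and MPPs against ST cells (right) in oil, with Slc25a genes as grey circles, Timm and Tomm genes as red triangles, and black lines for the median of all genes in each length class. The lines fall from 0.45 to -0.21 on the left and climb from -0.48 to 0.22 on the right, and most of the shortest triangles lie beyond them.

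Carriers that differed between ST and LT cells were mostly lower in ST, and 5 of these 6 stayed lower with length and GC trends removed. The 2-oxodicarboxylate carrier Slc25a21, which takes up intermediates of lysine breakdown, had 10.9, 14.1 and 11.0 in LT oil, 5.43, 0.497 and 0.733 in ST oil and 0.135, 0.43 and 0.396 in MPP oil. Its recovered reads summed to 143 in LT oil, 19 in ST oil and 2 in MPP oil. LT exceeded ST by a factor of 5.89 in scaled reads (95% exact interval 3.63 to 10.1, counting error only) and MPP by 64.9 (17.6 to 541). The fitted log2 differences, which depend on the added 1, were -2.34 for ST against LT (SE 0.44, limma adjusted p = 0.000194) and -3.30 for MPPs against LT (limma adjusted p = 2.57e-06). LT cells thus held most of its reads among oil libraries, and ST library A held most of those in ST cells.

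The citrate carrier Slc25a1, which exports citrate for lipid synthesis, had 45.8, 43.7 and 37.5 in LT oil and 22.6, 23.4 and 30.1 in ST oil (-0.73, SE 0.21, limma adjusted p = 0.00858). Slc25a44, a branched-chain amino acid carrier, had 32.0, 29.8 and 25.5 against 11.4, 18.4 and 18.6 (-0.84, SE 0.21, limma adjusted p = 0.00367). The pyrimidine nucleotide carrier Slc25a36 had 197, 196 and 208 against 145, 146 and 128 (-0.52, SE 0.12, limma adjusted p = 0.00215). In each of these 3 genes every ST library was below every LT library. Slc25a30, an uncoupling protein like carrier, had 12.2, 9.83 and 11.3 against 3.79, 3.81 and 6.60 (-1.11, limma adjusted p = 0.00955). Slc25a23, a calcium-regulated ATP-Mg and phosphate carrier, had 62.8, 56.1 and 67.3 against 50.9, 38.9 and 37.1 (-0.55, limma adjusted p = 0.0155; -0.29 and 0.264 with length and GC trends removed). The adenine nucleotide translocase Slc25a4, which exchanges ADP for ATP, was the carrier that was higher, with 68.0, 71.2 and 78.7 against 77.2, 118 and 105 (0.44, limma adjusted p = 0.0318), and its groups overlapped. That call was lost with length and GC trends removed (0.24, limma adjusted p = 0.244), without trend and robust settings (0.073), and without LT oil library A (0.11) or B (0.0843) or ST oil library B (0.185) or C (0.0938).

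MPPs against ST cells in oil share the ST oil libraries with the comparison above, so the values that follow are not a separate sample of ST cells, and every oil library also enters the tamoxifen comparisons further on. Of 60 members, 20 passed (33.3%), 4 higher and 16 lower, near the 30.7% of all genes that passed (16.8% higher, 13.9% lower). Of the 20 Timm and Tomm genes, 12 were lower in MPPs (60%) and 0 higher, including all 5 small TIMs, and their median log2 difference was -0.67, against -0.11 for Slc25a genes and -0.05 for all genes. Timm8b had 12.6, 13.0 and 10.4 in MPP oil (log2 difference from ST -1.59, SE 0.30, limma adjusted p = 0.000184). Timm10 had 4.19, 4.15 and 4.88 (-1.38, SE 0.28, limma adjusted p = 0.000383). Timm9 had 9.86, 11.3 and 11.2 (-1.04, limma adjusted p = 0.000476). All of these lay below every ST oil library. Timm13 had 5.81, 3.87 and 7.79 (-1.30, limma adjusted p = 0.00544), and Timm8a1 44.2, 41.4 and 44.0 (-0.67, limma adjusted p = 0.0043).

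Subunits of TOM and TIM23 were lower in MPPs as well. Tomm5 had 21.8, 18.5 and 24.9 in MPP oil (-1.34, SE 0.26, limma adjusted p = 0.000437). Tomm7 had 9.32, 6.45 and 8.05 (-1.30, limma adjusted p = 0.0014), and Tomm20 43.1, 48.8 and 65.3 (-0.70, limma adjusted p = 0.0014). Timm23 had 30.7, 44.2 and 52.9, all below the lowest ST value of 63.1 (-0.66, limma adjusted p = 0.00306). Timm17b, Timm44 and Tomm6 were the other 3 import genes that were lower, at -0.88, -0.41 and -0.69. As for ST against LT, length went with the difference: all genes of up to 1000 exon bases had a median of -0.48 and genes over 5000 bases 0.22. With length and GC trends removed, 9 of the 19 Timm and Tomm genes with a known length were lower in place of 11, and Timm8a1 (-0.26, limma adjusted p = 0.263) and Timm23 (-0.31, limma adjusted p = 0.153) no longer passed. The small TIMs Timm8b, Timm9, Timm10 and Timm13 still passed. Beside these differences, 8 of the 32 mitosis and replication genes were higher and 5 lower in MPPs, and 8 of 18 erythroblast markers were lower. Of 11 neutrophil lineage markers 5 were higher and 1 lower. The part of these lists was not tested.

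Among the carriers, 4 were higher and 4 lower in MPP than in ST cells. The coenzyme A carrier Slc25a42 had 25.8, 22.0 and 17.1 in ST oil and 13.1, 7.59 and 7.79 in MPP oil (-1.13, SE 0.28, limma adjusted p = 0.00321). Slc25a12, the aspartate-glutamate carrier of the malate-aspartate shuttle, had 66.3, 63.1 and 82.8 in ST and 108, 94.7 and 100.5 in MPP oil (0.52, limma adjusted p = 0.00788). Slc25a23, at 61.8, 64.0 and 67.7 in MPP oil, was higher than in ST (0.61, limma adjusted p = 0.00751), and so was its relative Slc25a24, at 43.9, 40.5 and 40.0 against 29.8, 19.7 and 33.3 (0.60, limma adjusted p = 0.0201). Slc25a36, at 188, 181 and 180, was higher by 0.39 (limma adjusted p = 0.017). With length and GC trends removed, Slc25a12, Slc25a23 and Slc25a36 no longer passed (limma adjusted p = 0.13, 0.0877 and 0.434). The remaining 3 carriers that were lower were the oxoglutarate carrier Slc25a11 (-0.79), the iron carrier Slc25a28 or mitoferrin 2 (-0.71) and Slc25a34 (-0.98).

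MPPs and LT cells differed in few members. Of 60, 5 passed (8.33%), 1 higher and 4 lower, against 14.8% of all genes (7.76% higher, 7.01% lower), and 0 of these were Timm or Tomm genes. At an unadjusted limma p under 0.05 there were 3 Timm and Tomm genes, a count given without the share of all genes. The median of all Timm and Tomm genes was -0.16. Timm8a1 differed by 0.03 (SE 0.18, limma adjusted p = 0.949). Slc25a12 had 66.0, 70.4 and 69.5 in LT oil, below each MPP library (0.55, limma adjusted p = 0.00851). Slc25a42 had 18.4, 27.3 and 22.1 in LT oil and was lower in MPPs by 1.19 on the log2 scale (limma adjusted p = 0.00353). Slc25a38, the carrier of glycine for haem synthesis, had 13.9, 18.4 and 19.9 in LT oil and 9.32, 6.73 and 13.6 in MPP oil (-0.79, limma adjusted p = 0.0271). Slc25a33, a pyrimidine nucleotide carrier, had 3.23, 4.17 and 4.04 against 0.946, 1.00 and 1.45 (-1.18, limma adjusted p = 0.0327). The call of Slc25a33 was lost in all 6 fits that left out 1 library of either group (limma adjusted p = 0.052 to 0.111), after quantile normalisation (0.0746) and by edgeR (adjusted p = 0.0501). That of Slc25a38 was lost without MPP oil library 1 (limma adjusted p = 0.0748) or 2 (0.199), without LT oil library B (0.104) or C (0.121), and after quantile normalisation (0.0508). Beside Slc25a38 stand the erythroblast markers, 12 of 18 lower in MPP than in LT oil, with a summed level of 405.3 to 513 in MPP and 2239 to 2754 in LT oil, and their part in it was not tested.

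**Figure D3:**
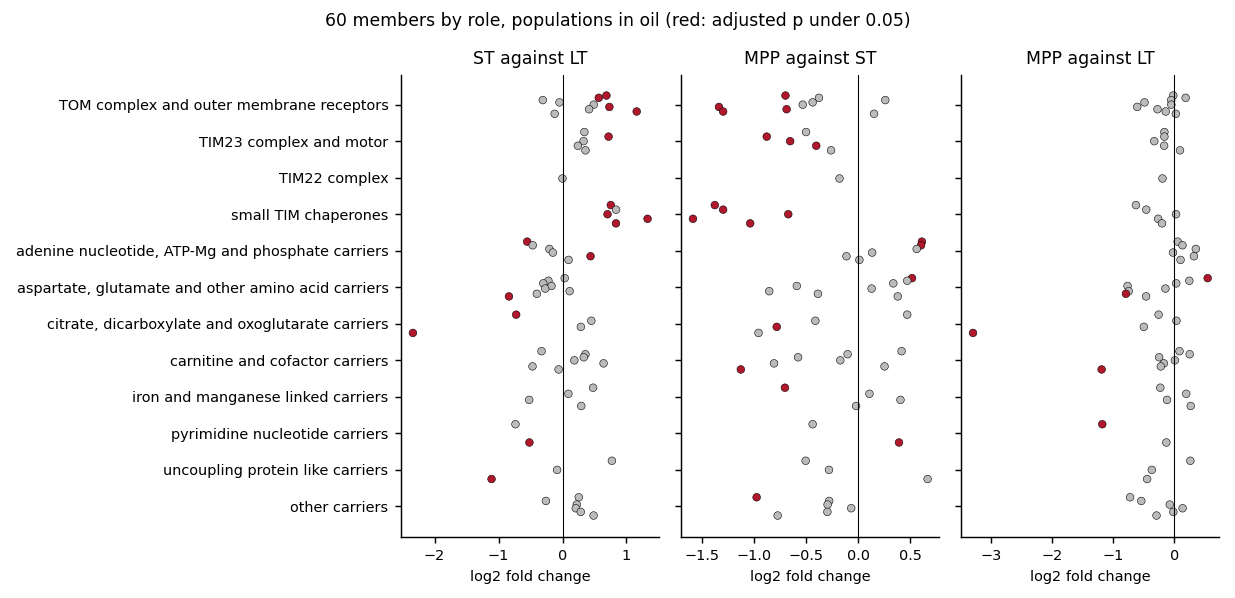
Log2 fold change (x axis) of each of the 60 members, 1 circle per gene in a row per role, for the 3 comparisons of populations in oil, with red circles where the limma adjusted p was under 0.05. In ST against LT the red circles of the upper rows (TOM, TIM23 and small TIM genes) lie right of 0 and in MPP against ST left of 0, while in MPP against LT no circle of these rows is red.

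The second question was what tamoxifen did in each population. In ST cells 9.61% of all genes passed (6.01% higher, 3.6% lower). The effects of tamoxifen are compared between populations further on. Of the 60 members 5 passed (8.33%), near that background: Timm23, the ADP/ATP carrier Slc25a5 and the phosphate carrier Slc25a3 rose, and the uncoupling protein like Slc25a27 (UCP4) and the coenzyme A carrier Slc25a42 fell. The median log2 change of the members was 0.13, with 37 of 60 above 0, against 0.01 for all genes. That median was 0.08 without ST tamoxifen library C, 0.09 by edgeR and 0.21 under the stricter filter on low values. Groups did not overlap for 11 members that were higher and 5 that were lower, against 14.8% and 12.2% of all genes. After quantile normalisation 0 members rose and 3 fell, in place of 3 and 2.

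Timm23 (ENSMUSG00000013701), the channel of the presequence translocase, had 69.6, 63.1 and 65.8 in ST oil and 110.1, 108 and 85.1 in ST tamoxifen. Every treated library was above every oil library, and the change was 0.60 (SE 0.16, limma adjusted p = 0.0206). The other 4 TIM23 complex genes changed by -0.33 to 0.32 and none passed. Slc25a5 (ENSMUSG00000016319), which brings ADP into the matrix and ATP out, had 186, 247 and 201 in oil and 248, 354 and 362 with tamoxifen, a narrow separation set by 1 library on each side (0.59, SE 0.16, limma adjusted p = 0.0212). It has pseudogene copies in the mouse genome, so its reads are uncertain to the extent that counting could split them. Slc25a3 (ENSMUSG00000061904), which supplies the phosphate for ATP synthesis, had 204, 249 and 240 in oil and 319, 317 and 258 with tamoxifen (0.36, SE 0.11, limma adjusted p = 0.0414). With these, 2 of the 6 adenine nucleotide and phosphate carriers rose, and the median of the 6 was 0.37.

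Slc25a27 (ENSMUSG00000023912) had 32.1, 26.3 and 22.1 in ST oil and 16.1, 12.1 and 13.7 in ST tamoxifen. The treated libraries lay below every oil library, and its adjusted p was the smallest of the members in ST cells (-0.89, SE 0.21, limma adjusted p = 0.00835). Slc25a42 (ENSMUSG00000002346) had 25.8, 22.0 and 17.1 in oil and 12.1, 14.1 and 6.04 with tamoxifen (-1.003, SE 0.28, limma adjusted p = 0.0244). The treated ST level of Slc25a42 was 10.8 ± 4.21 (SD, n = 3), beside 9.49 ± 3.13 in MPP oil. Import genes other than Timm23 did not pass in ST cells: 0 of 5 small TIMs and 0 of 9 Tomm genes did, with medians of 0.05 and 0.14. Timm8a1 had 104, 98.7 and 94.6 with tamoxifen, above all 3 oil values, and missed the threshold (0.51, SE 0.18, limma adjusted p = 0.065).

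None of the 5 ST calls held in every fit that left out 1 library: 2 members passed without ST oil library A or without ST tamoxifen library B, and 3 without any 1 of the other ST libraries. With length and GC trends removed, 4 of the 5 held and Slc25a3 did not (limma adjusted p = 0.0993). In that fit 5 of the 59 members with a known length passed, with 2 Timm and Tomm genes among them in place of 1. All genes of up to 1000 exon bases had a median change of -0.32 with tamoxifen in ST cells, and those of 3000 to 5000 bases 0.08. Without LT tamoxifen library A, which enters this contrast only through the shared spread, 8 members passed. Markers of cycling cells were higher beside these results: 15 of 32 mitosis and DNA replication genes rose in ST cells, and their summed level went from 4240 to 5063 in the oil libraries to between 7033 and 7375 in the treated ones. Of 18 erythroblast markers 7 rose, with sums of 641.2 to 854.6 in oil and 958.8 to 1348 with tamoxifen. Their part in the changes of the members was not tested.

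**Figure D4:**
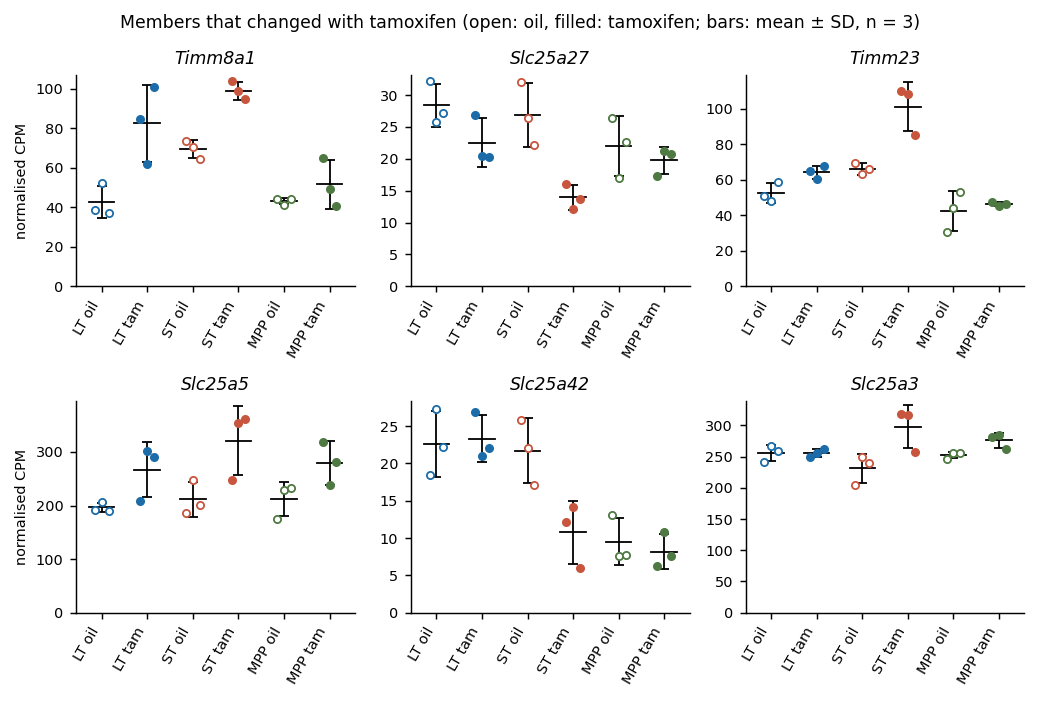
Normalised CPM (y axis, linear, from 0) of the 6 members that changed with tamoxifen in LT or ST cells, for every library by group (x axis), oil as open and tamoxifen (tam) as filled circles, with bars for mean ± SD (n = 3). Timm8a1 with tamoxifen lies at 62.1 to 101 in LT cells against 37.2 to 52.1 in oil, and Slc25a27 and Slc25a42 in ST tamoxifen lie below all ST oil libraries.

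In LT cells 0.416% of all genes passed (0.139% higher, 0.277% lower), and 1 of the 60 members (1.67%), Timm8a1 (ENSMUSG00000048007). This small TIM chaperone had 38.9, 52.1 and 37.2 normalised CPM in LT oil and 84.6, 62.1 and 101 in LT tamoxifen, and the groups did not overlap. The rise was 0.92 on the log2 scale (SE 0.18, limma adjusted p = 0.0153), which took it to 82.4 ± 19.4 (SD, n = 3). ST oil cells stood at 69.5 ± 4.72, the libraries of these groups overlapped, and their difference was not tested. The rise in LT cells was 0.90 (limma adjusted p = 0.0099) with length and GC trends removed. The call was lost without LT oil library A (limma adjusted p = 0.0912), without LT oil library C (0.115), without LT tamoxifen library C (0.0564), without trend and robust settings (0.0863) and in a fit of the 2 LT groups alone (0.189), and the change stayed between 0.77 and 1.11 under every alternative run. Without LT tamoxifen library A it was 0.89 (SE 0.19, limma adjusted p = 0.0241).

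No other member passed in LT cells. The next by p were Slc25a45, with 47.0, 49.4 and 74.8 in oil and 32.3, 44.6 and 35.6 with tamoxifen (-0.57, limma adjusted p = 0.115), and Tomm20, with 64.4, 81.5 and 77.1 with tamoxifen, above all 3 oil values (0.50, limma adjusted p = 0.141). Without LT tamoxifen library A they stood at -0.47 (limma adjusted p = 0.249) and 0.59 (limma adjusted p = 0.102). Other small TIMs stood at 0.59 for Timm10, 0.53 for Timm9, 0.27 for Timm8b and -0.26 for Timm13, and without that library at 0.57, 0.53, 0.67 and 0.30, and none of these passed either way. Timm10 had 11.8, 11.6 and 11.3 with tamoxifen and Timm9 18.6, 16.1 and 21.2, each above all LT oil values. Across the group, 11 members were higher without overlap and 1 lower, against 9.04% and 9.36% of all genes. The median of the Timm and Tomm genes was 0.22 with all libraries, and single libraries moved it: 0.37 without LT tamoxifen library A, 0.10 without B and 0.01 without C. For all members it was 0.04, and 0.13, 0.06 and -0.01 without A, B and C. In library A Timm13 stood at 2.53 (8.99 and 11.6 in libraries B and C), Timm17b at 8.48 (23.8 and 23.0), Timm22 at 8.48 (15.3 and 14.6) and Tomm5 at 22.4 (51.2 and 70.2). Without that library Timm8a1 and Tomm5 (0.83, limma adjusted p = 0.0486) passed. Beside these values, the 32 mitosis and replication genes summed to between 2793 and 3531 in the oil libraries and to between 4047 and 6619 in the treated ones, with 0 of the 32 passing by limma and 21 at an unadjusted p under 0.05. The 9 progenitor markers summed to 508.1 to 753.6 in LT oil and to 259.6 to 432.7 in LT tamoxifen: 3 fell by limma, Dntt (-2.65), Satb1 (-1.28) and Mpo (-2.20), and all 9 had an unadjusted p under 0.05. Both counts at an unadjusted p are given without the share of all genes at that cutoff, and are not read as results. The part of either list in the rise of Timm8a1 was not tested.

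In MPPs, after 1 week, 0.0555% of all genes passed (0.0347% higher, 0.0208% lower) and 0 of the 60 members did, also by edgeR and DESeq2. At an unadjusted limma p under 0.05 there were 3, a count given without the share of all genes at that cutoff. Slc25a5 had 176, 229 and 234 in oil and 319, 238 and 281 with tamoxifen, just without overlap (0.39, limma adjusted p = 0.842). Slc25a37 or mitoferrin 1, which imports iron for haem, had 123, 124 and 139 against 148, 179 and 153 (0.31, limma adjusted p = 0.842). Slc25a21 had 0.914, 1.70 and 1.85 with tamoxifen, from 4, 7 and 6 reads, and 2 reads in all in oil (0.90, limma adjusted p = 0.874). Timm8a1 had 64.9, 49.1 and 40.6, overlapping its oil values (0.23, limma adjusted p = 0.956). The median of the members was 0.08, with 40 of 60 above 0, against 0.00 for all genes, and it was 0.05 without MPP tamoxifen library 1.

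Whether tamoxifen acted differently between populations was tested as the difference of its effects, and 0 of the 60 members passed in any pair, against 0.0555% of all genes for ST minus LT, 0.00694% for ST minus MPP and 0% for LT minus MPP. By edgeR and by DESeq2 the counts of members were 0 as well. For ST minus LT the smallest p values were those of Slc25a42 (-1.05, SE 0.40, unadjusted p = 0.014, limma adjusted p = 0.254), Slc25a3 (0.36, limma adjusted p = 0.339) and Slc25a46, a protein of the outer membrane tied to mitochondrial shape (-0.48, limma adjusted p = 0.374). For ST minus MPP they were Slc25a27 (-0.76, SE 0.30, limma adjusted p = 0.305), Slc25a37 (-0.48, limma adjusted p = 0.313) and Slc25a16 (0.67, limma adjusted p = 0.351). For LT minus MPP they were Timm8a1 (0.70, SE 0.25, limma adjusted p = 0.816), Slc25a4 (0.52, limma adjusted p = 0.837) and Slc25a11 (-0.69, limma adjusted p = 0.867). Without LT tamoxifen library A 0 members passed either. Slc25a42, Slc25a3 and Slc25a46 then stood at -0.95, 0.35 and -0.35 for ST minus LT (limma adjusted p = 0.288, 0.293 and 0.49), and Timm8a1, Slc25a4 and Slc25a11 at 0.66, 0.50 and -0.28 for LT minus MPP (limma adjusted p = 0.998 each). A rise in 1 population and none past the threshold in another was therefore not shown to be a difference between them. Slc25a3 illustrates the values: 250, 256 and 262 in LT tamoxifen against 242, 267 and 259 in LT oil, a change of 0.00 (SE 0.11), beside 0.36 in ST cells. Slc25a46 had 71.3, 75.7 and 87.2 in ST oil and 83.8, 62.4 and 76.9 in ST tamoxifen, and 78.5, 58.0 and 56.7 in LT oil and 101, 67.5 and 88.8 in LT tamoxifen.

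**Figure D5:**
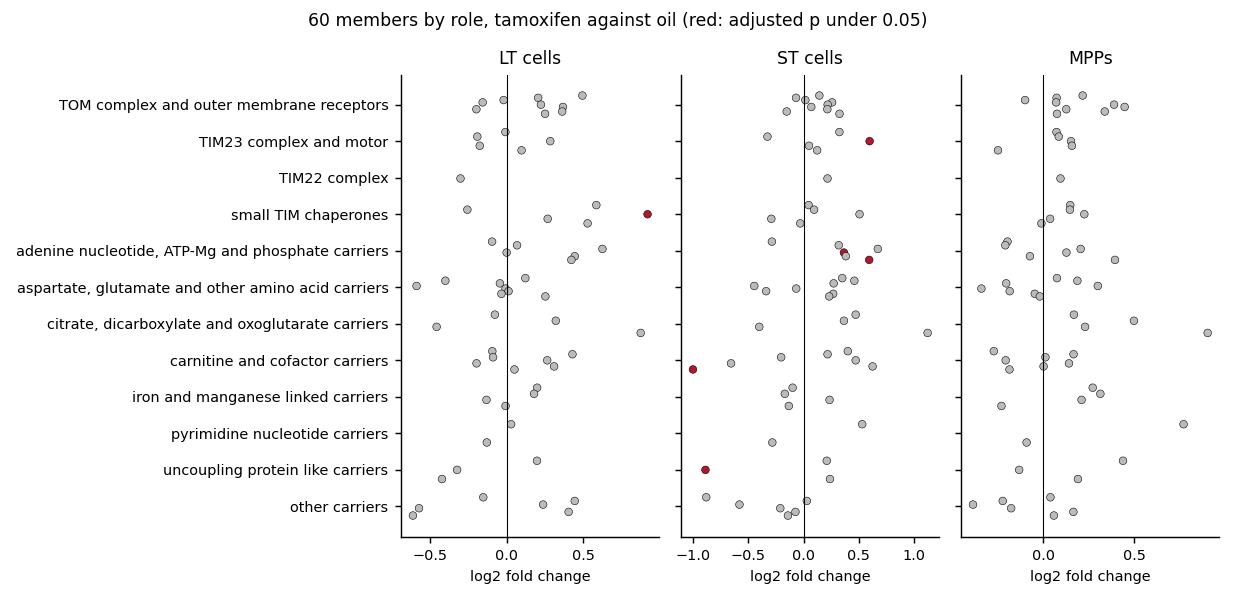
Log2 fold change with tamoxifen (x axis) of each of the 60 members, 1 circle per gene in a row per role, in LT cells, ST cells and MPPs, with red circles where the limma adjusted p was under 0.05. There is 1 red circle in LT cells (Timm8a1 at 0.92), 5 in ST cells and 0 in MPPs.

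Other genes of the pathway were taken from lists and are read against the shares of all genes given above, which for tamoxifen in ST cells were 6.01% higher and 3.6% lower. In ST cells 3 of 29 further import genes rose with tamoxifen and 0 fell: Hspd1, the matrix chaperonin (0.82, limma adjusted p = 0.000221), Hspa9, the import motor's Hsp70 (0.45, limma adjusted p = 0.0245), and Trap1, a mitochondrial Hsp90 (0.41, limma adjusted p = 0.0457). Of 20 further mitochondrial membrane transport genes 3 rose, among them the outer membrane channel Vdac1 (0.90) and the serine carrier Sfxn1 (0.60), and Brp44, a subunit of the pyruvate carrier, fell (-0.68). Of 17 regulators of mitochondrial biogenesis 0 passed by limma, and 5 had an unadjusted p under 0.05. In LT cells 0 of the 29 and 0 of the 20 passed, and 2 of each had an unadjusted p under 0.05. These counts at an unadjusted p are given without the share of all genes, and are not read as results. In oil, 7 of the 29 import genes were higher and 2 lower in ST than in LT cells, led by the co-chaperonin Hspe1 (0.85), the inner membrane peptidase Immp1l (0.94), Dnajc15 (1.30) and Romo1 (1.08), beside 12.5% and 16% of all genes. Of the 20 transport genes 1 was higher, Brp44 (0.98), and 6 were lower, among them the uncoupling protein Ucp2 (-0.61), Sfxn3 (-0.79) and Sfxn1 (-0.55). Between MPP and ST cells 0 of the 29 were higher and 9 lower, and of the 20 transport genes 4 were higher and 4 lower, beside 16.8% and 13.9% of all genes. These shares cover genes of all lengths. Of all genes of up to 1000 exon bases, 21.8% were higher in ST than in LT oil, and 22.7% lower in MPP than in ST oil. For genes of 1000 to 2000 bases the shares were 23.8% and 28.8%. The calls of these lists were not counted with length and GC trends removed.

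Timm8a1 had its lowest mean in LT oil, 42.7 ± 8.16 (SD, n = 3), followed by MPP oil at 43.2 ± 1.55, MPP tamoxifen at 51.5 ± 12.3, ST oil at 69.5 ± 4.72, LT tamoxifen at 82.4 ± 19.4 and ST tamoxifen at 99.0 ± 4.57. The libraries of LT oil, MPP oil and MPP tamoxifen overlapped, as did those of MPP tamoxifen, ST oil and LT tamoxifen, and those of LT tamoxifen and ST tamoxifen. The genes whose log2 values followed it most closely over the 18 libraries were Pno1 (Pearson r 0.923), Eif2s2 (0.895), Slmo2 (0.892), Nop58 (0.886) and Exosc1 (0.885). Among the members they were Timm10 (0.812), Timm9 (0.796), Tomm20 (0.791), Timm23 (0.79) and Slc25a4 (0.728). With the 6 group means removed, these members stood at 0.501, 0.119, -0.003, 0.042 and 0.179. The points share group, length class and scaling, and the values are a description.

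Of the remaining members, 29 of the 60 passed in 0 of the 9 comparisons. The share of all genes that passed in none was not counted, so this number is not read as a result. The 29 members include the peroxisomal carrier Slc25a17, with group means from 24.0 ± 5.23 in LT oil to 35.9 ± 5.43 in ST tamoxifen. Mitoferrin 1 (Slc25a37) ranged from 106 ± 7.89 in ST tamoxifen to 160 ± 16.9 in MPP tamoxifen, and Slc25a46 from 63.3 ± 6.12 in MPP oil to 85.8 ± 17.0 in LT tamoxifen. Tomm70a lay between 115 ± 11.3 in ST oil and 149 ± 12.8 in LT tamoxifen, and Timm22 between 12.8 ± 3.74 in LT tamoxifen and 18.3 ± 4.05 in ST tamoxifen.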

How the data were processed

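Expression was taken from 1 deposited table of 18 libraries. The labels' protocols name the Picopure kit for RNA, the Ovation V2 system for amplified cDNA and the TruSeq DNA kit for adaptors. Per the submitters' processing notes, cutadapt, Picard, RSEM 1.17 and limma were used with build NCBIM37. The sources used here state no scaling method, annotation or strand setting, so overlapping antisense genes cannot be told apart. The deposited values are a normalised signal on a linear scale, each equal to a whole number of reads plus an offset, times a library constant (100% whole within 0.001 read, largest deviation 2.7e-08), and are called normalised CPM in the text although libraries sum to different totals.

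All genes were fitted with limma 3.58.1 in R 4.3.3 (statmod 1.5.0) on log2(value + 1), with 1 mean for each of 6 groups, trend and robust settings and 12 residual degrees of freedom. The pseudocount understates changes of low genes. A value of 1 in 3 libraries was required and removed 0 genes. The fit was tested on simulated data. Whether same-lettered LT and ST libraries share animals is not stated. The main fit did not pair them, and its p-values measure the spread between these libraries. Counting intervals cover counting error only, since amplified reads carry no molecular identifiers.

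The members and lists were chosen with earlier results of these data known. Named members are Timm8a1, the highest mean of each role group, and in each comparison those past the threshold, up to 10 of smallest p a direction, or the 3 of smallest p where fewer than 3 passed. Genes outside the rule were named from lists, up to 4 of smallest p past the threshold. Other members were named where counts were small, after their values were seen. Alternatives were edgeR 4.0.16 and DESeq2 1.42.0 on recovered reads, other pseudocounts, filters, scaling and samples, and a replicate block. The removal of length and GC trends was added after seeing the data, with exon lengths from GENCODE M21, a GRCm38 annotation, for 95% of genes and 98.3% of members.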

Additional observations from a re-analysis of the deposited data

How the results depend on the processing

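None of the named member comparisons changed direction under an alternative run, but the median of all members with tamoxifen in LT cells went from 0.04 to -0.01 without LT tamoxifen library C. Of 41 member calls named, 19 passed under every alternative run. For tamoxifen in ST cells 5 members passed, 3 after quantile normalisation, 2 without trend and robust settings, and 2 to 8 with 1 library left out. In LT cells 1 passed, against 3 by DESeq2, 0 without trend and robust settings, 0 with the compared groups alone, and 0 to 2 with 1 library left out. For ST against LT cells 16 passed, against 8 with length and GC trends removed (where 15 of the 59 members with a known length had passed) and 10 to 15 with 1 library left out, and of Timm and Tomm genes 9, against 2 (8 of 19 before removal) and 4 to 8. The median of all members for ST against LT was 0.20, and 0.08 without LT oil library A, 0.10 without ST oil library C, 0.10 with a pseudocount of 5 and 0.12 with those trends removed. For MPPs against LT cells 5 passed, against 3 after quantile normalisation, 8 with the compared groups alone and 3 to 4 with 1 library left out. For MPPs against ST cells 20 passed, and 15 to 18 with 1 library left out. The cause of these changes was not tested. Where libraries were left out, the number of samples was also smaller. In MPPs with tamoxifen, and for the 3 differences of effects, 0 members passed under any alternative.

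The labels share replicate numbers between groups. Same-lettered LT and ST libraries of 1 treatment deviated from their group means with a correlation of 0.052 to 0.137, each highest with its own letter. Oil and tamoxifen libraries of the same label ranged from -0.033 to 0.126, which does not bear on pairs within a treatment. Whether same-lettered LT and ST libraries came from the same mice is not stated, and the main fit did not pair them. With a replicate block 4 members passed in ST cells with tamoxifen, 1 in LT cells and 0 in MPPs, 15 for ST against LT, 5 for MPPs against LT and 18 for MPPs against ST. With same-lettered LT and ST libraries as blocks, 16 passed for ST against LT. Depth limits the genes with few reads, such as Slc25a21 in MPPs and Slc25a33.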
